A study of Mus musculus with 8 samples.

Results

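The immunoglobulin kappa light chain locus of the mouse was read here through 85 array probes that address 80 Ensembl transcripts, out of 55681 non-control probes. Every non-control probe whose transcript lies from ENSMUST00000103301 to ENSMUST00000103410 was taken, whatever its signal. The block was chosen because of its difference between arrays labelled ATF3 knockout (KO) and arrays labelled wild type (WT), so that difference is given as a description: members get no p-value, and the counts of them from fits over all genes are not evidence for the block. The files give these transcripts no segment name, and 0 of the 80 were matched to a gene symbol in the RefSeq table of GRCm38.p6. That table lists 102 V segments, 60 V pseudogenes, 5 J segments and 1 C region of the kappa locus, on chromosome 6. Which transcript is which of these was not settled here, so each is called by its Ensembl number, and no probe sequence is printed.

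Antibodies pair a heavy chain with a light chain, and kappa is the main light chain of the mouse. In precursor B cells the RAG recombinase joins a V segment to a J segment, and the joined exon is spliced to the constant region. Mature B cells carry the product on their surface, and plasma cells, which sit in the bone marrow, transcribe it at very high levels. Neutrophils belong to another lineage and do not rearrange the kappa locus.

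RNA came from the Ly6G+ fraction of C57BL/6 bone marrow, labelled as neutrophils and taken from leg bones with magnetic beads. Of the 8 arrays, 4 held WT and 4 held cells labelled as knockouts of ATF3, a stress-induced transcription factor, and each array carried 1 sample in 1 colour. The labels conflict on handling: the series text has RNA taken at once, while the descriptions of several samples mention a culture step with 4-OHT. Neither the deleted allele nor age is stated in the sources used here, and nothing says that the samples are separate animals, so the spread between arrays may be technical. All 8 arrays lay on 1 slide, with the WT arrays in one row and the ATF3 KO arrays in the other, so the effect of row and that of genotype cannot be told apart.

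The targeted gene went against the labels. Its single probe, for Atf3, read 0.69, 0.82, 0.75 and 0.65 in WT 1 to 4 and 1.53, 1.0, 1.41 and 1.02 in ATF3 KO 1 to 4, on the log2 scale used below. All 4 arrays labelled ATF3 KO were thus higher than all 4 labelled WT. Whether this probe lies in the deleted part is not stated in the sources used here, so it does not settle the genotypes. WT and ATF3 KO mean, throughout, the libraries labelled so, and every direction given below rests on those labels.

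Values are log2 of the processed signal minus the 75th percentile of the same array, so 0 marks that percentile. That percentile was a signal of 186 ± 33.8 over the WT arrays and of 141 ± 21.3 over the ATF3 KO ones (SD, n = 4 each). A probe was above background where the scanner software flagged it so, which held for 51.0% ± 3.68 of probes on WT arrays and 49.1% ± 3.30 on ATF3 KO arrays (SD, n = 4 each). No kappa spot carried an outlier flag, and each probe had 1 spot. Of 8 neutrophil markers, 7 were found by symbol, and all 7 were above background on all 8 arrays, while Ly6g itself was not matched to a probe. The number of arrays, 4 per genotype, limits the precision of every value.

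The kappa block was brighter on the arrays labelled ATF3 KO than on those labelled WT along most of its length. Of the 85 probes, 79 had a higher mean in ATF3 KO and 6 a lower one. Their median difference was 1.27 on the log2 scale, or 2.42-fold, with a range from -0.77 to 2.62. Over all 55634 probes measured on every array, 51.6% had a higher mean in ATF3 KO. In 38 of the 85 all 4 ATF3 KO values lay above all 4 WT values, and in 0 did they lie below, where 2.64% of all probes separated upward. Because the block was chosen on this contrast, these counts say nothing further about it.

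Many of the probes stood clear of background, and more of them did so in ATF3 KO. On all 8 arrays 49 probes were above background, 14 were on 4 to 7 arrays, 8 on 1 to 3 arrays and 14 on no array. All 4 WT arrays detected 49 probes, and all 4 ATF3 KO arrays detected 60. Detection was on more ATF3 KO than WT arrays for 17 probes, on fewer for 3 and on equal numbers for 65. The count per array was 64, 56, 55 and 54 in WT 1 to 4 and 67, 67, 66 and 61 in ATF3 KO 1 to 4. The groups overlapped through the first WT array, whose 64 detected probes exceeded the 61 of ATF3 KO 4, and which also had the largest share of all probes above background, 55.3%. The depth of signal moved with the size of the difference: its median was 1.42 for the 63 probes detected on at least 4 arrays, 0.73 for the 8 on 1 to 3 arrays and 0.24 for the 14 on none. The filter on 4 arrays can be passed through the brighter group alone, so the 63 are a subset picked in part by the contrast.

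**Figure D1:**
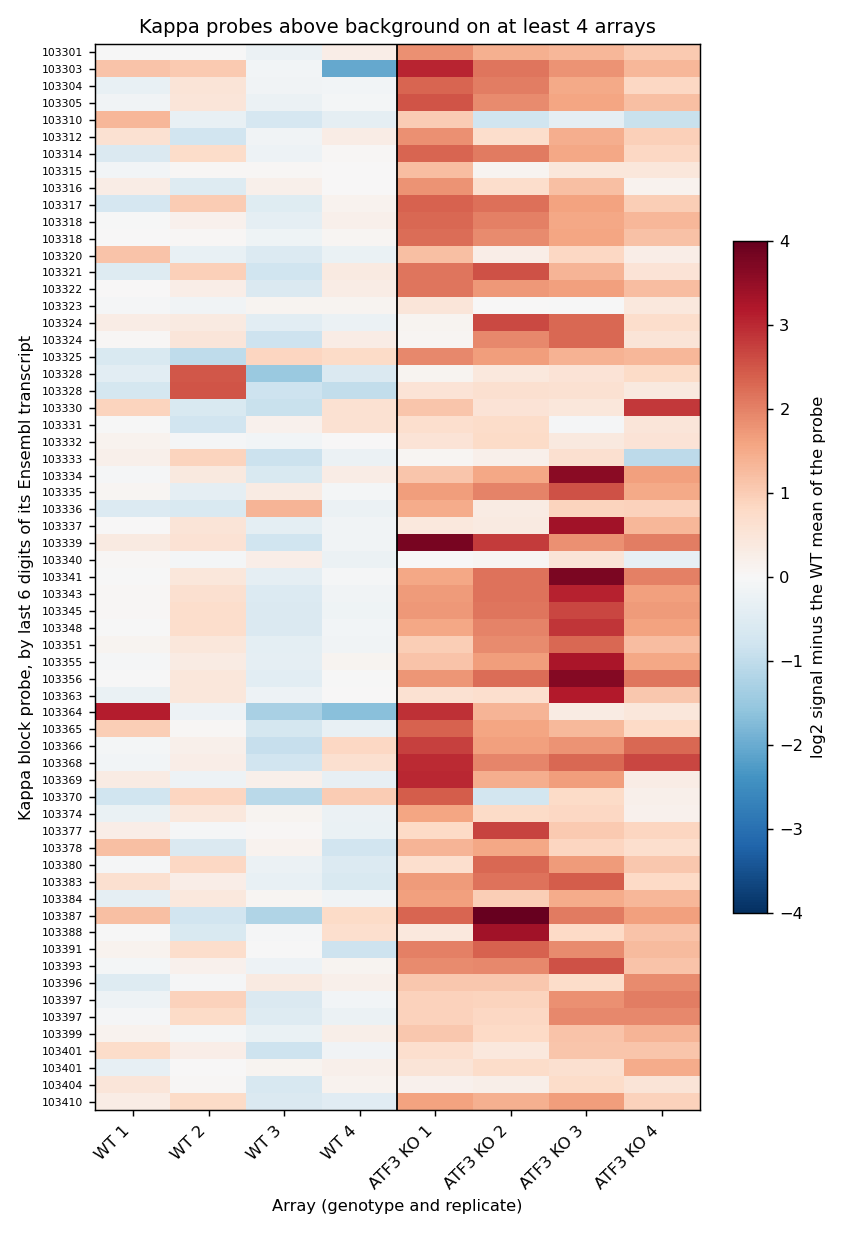
Each row is 1 of the 63 kappa probes above background on at least 4 arrays, in order of transcript number; each column is an array, and colour is the log2 signal minus the probe's WT mean. Red fills most of the ATF3 KO columns, and the median difference of these probes was 1.42, with patches that differ between single ATF3 KO arrays.

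Among the 63 detected probes, 61 were higher in ATF3 KO and 2 lower. In 36 of them the groups did not overlap and in 27 they did. A difference of at least 2-fold was seen in 46, and of at least 4-fold in 10. Of the 21240 genes tested, 878 separated upward, or 4.13%, and 2324 downward. At least 2-fold higher were 212 of those genes, 43 of them kappa transcripts. At least 4-fold higher were 36, 10 of them kappa transcripts. The 63 probes were picked in part by the contrast, so their counts are a description. The SD of the difference over these probes was 0.65, while the median standard error (SE) of 1 probe was 0.38, against 0.14 over all genes tested. The median kappa probe thus varied more between arrays of one genotype than the median gene. The genes were not matched to the kappa probes for signal level, so the part of dim signal in this was not tested.

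After 1 probe per gene was kept, 58 kappa transcripts and 21240 genes in all were fitted with limma. Benjamini-Hochberg adjusted p fell under 0.05 for 16 of the 58, all higher in ATF3 KO, with differences from 1.1 to 2.62 and no overlap of groups. Over all genes 0.367% were called higher and 0.08% lower. The block was chosen on these same values, and some of the 58 passed the filter through ATF3 KO alone, as ENSMUST00000103339 did, so the count of 16 is no test of the block and nothing is read from it. The 58 had a median difference of 1.43, the 21240 genes one of -0.11. The count of 16 rested on single arrays: it was 0 without WT 1, 0 without WT 3, 3 without ATF3 KO 2, 7 without ATF3 KO 4, 8 without WT 4 and 10 without WT 2. It was 27 with scaling to the median, 26 with the normexp background correction, 5 with quantile normalization and 0 with no filter on dim probes, where all 80 transcripts were fitted.

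**Figure D2:**
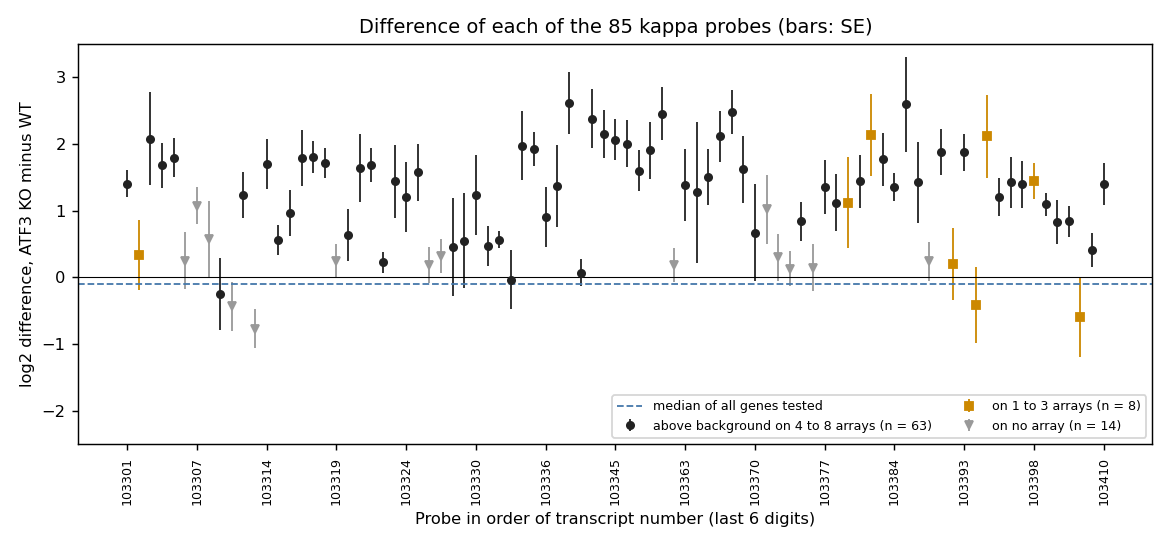
Each point is the log2 difference, ATF3 KO minus WT, of 1 of the 85 kappa probes in order of transcript number, with its SE as a bar; the dashed line is the median of all genes tested, at -0.11. Differences run from -0.77 to 2.62, and of the 6 probes below 0, 4 stayed at background on every ATF3 KO array.

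The brightest kappa probe was that of ENSMUST00000103410, the highest-numbered member. Its values were 5.67, 6.14, 4.80 and 4.92 in WT 1 to 4 and 6.99, 6.80, 7.04 and 6.29 in ATF3 KO 1 to 4. The groups did not overlap, though WT 2 came close to ATF3 KO 4. The difference was 1.40 with an SE of 0.32, a 2.64-fold change. This probe alone gave 48.0% to 58.5% of the summed signal of the 85 probes on an array, and brightness depends on the probe as well as on the RNA. The sum, in units of the array's 75th percentile, was 92.6, 121, 55.0 and 62.9 in WT 1 to 4 and 227, 216, 268 and 153 in ATF3 KO 1 to 4. The means were 82.9 ± 30.1 and 216 ± 47.5 (SD, n = 4 each), a ratio of 2.61. In RNA from a whole fraction, more kappa-expressing cells and more kappa RNA per cell in ATF3 KO cannot be told apart.

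A stretch in the middle of the block held 5 of the 10 brightest probes. ENSMUST00000103345 read 0.59, 1.23, -0.03 and 0.37 in WT 1 to 4 and 2.29, 2.69, 3.21 and 2.23 in ATF3 KO 1 to 4. ENSMUST00000103343 read 0.33, 0.92, -0.29 and 0.12 in WT and 1.98, 2.45, 3.33 and 1.91 in ATF3 KO. ENSMUST00000103356 read -0.03, 0.46, -0.45 and -0.02 in WT and 1.77, 2.23, 3.65 and 2.11 in ATF3 KO. In these 3 the third ATF3 KO array was the highest and the second WT array the highest of its group, and no WT value reached an ATF3 KO one. ENSMUST00000103348 read 0.12, 0.83, -0.45 and 0.04 in WT and 1.67, 2.12, 3.0 and 1.75 in ATF3 KO. ENSMUST00000103351 read 0.60, 0.94, 0.11 and 0.37 in WT and 1.49, 2.40, 2.79 and 1.74 in ATF3 KO. Both kept the same order of highest arrays and did not overlap. The 5 differences were 2.06 (SE 0.31), 2.15 (SE 0.36), 2.45 (SE 0.40), 2.0 (SE 0.35) and 1.60 (SE 0.31), in the order named.

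The other bright probes did not all share that size of difference. ENSMUST00000103391 read 0.18, 0.76, 0.03 and -0.77 in WT 1 to 4 and 2.07, 2.40, 1.93 and 1.32 in ATF3 KO 1 to 4, a difference of 1.88 (SE 0.34) with no overlap. ENSMUST00000103320 read 1.85, 0.41, 0.18 and 0.45 in WT and 1.92, 0.98, 1.53 and 0.99 in ATF3 KO. Its first WT array stood high among the WT arrays and overlapped the ATF3 KO range, and the difference was 0.63 (SE 0.39). ENSMUST00000103323 read 0.70, 0.59, 0.85 and 0.84 in WT and 1.22, 0.76, 0.74 and 1.18 in ATF3 KO, with overlap and a difference of 0.23 (SE 0.16). ENSMUST00000103310 read 2.30, 0.67, 0.31 and 0.62 in WT and 2.0, 0.19, 0.61 and 0.10 in ATF3 KO. Here the first array of each genotype stood high, the groups overlapped, and the difference of -0.25 was smaller than its SE of 0.54.

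ENSMUST00000103339 had the highest computed difference among probes above background on at least 4 arrays, 2.62 (SE 0.47), but its WT side was not measured. It read -3.96, -3.74, -5.12 and -4.48 in WT 1 to 4, not well above background on any of them, and -0.52, -1.53, -2.51 and -2.27 in ATF3 KO 1 to 4. Against a bound on the WT side, the signal was at least 3.14-fold higher in ATF3 KO, counted against the lowest signals that were well above background on each WT array. ENSMUST00000103387 read -1.65, -3.64, -4.07 and -2.09 in WT, with 2 arrays above background, and -0.53, 1.47, -0.79 and -1.23 in ATF3 KO. Its difference was 2.59 with an SE of 0.71, and the second ATF3 KO array stood high. ENSMUST00000103368 read -1.97, -1.60, -2.62 and -1.22 in WT and 1.14, 0.09, 0.45 and 0.82 in ATF3 KO, a difference of 2.48 (SE 0.33) with a gap between the groups. ENSMUST00000103341 read -0.35, 0.10, -0.71 and -0.40 in WT and 1.21, 1.84, 3.43 and 1.67 in ATF3 KO, a difference of 2.38 (SE 0.44), and again the third ATF3 KO array was the highest.

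At the small end, besides ENSMUST00000103310 and ENSMUST00000103323, were 3 further probes. ENSMUST00000103333 read -2.10, -1.41, -3.15 and -2.53 in WT 1 to 4 and -2.23, -2.10, -1.64 and -3.36 in ATF3 KO 1 to 4, a difference of -0.03 (SE 0.45). ENSMUST00000103340 read -2.95, -3.07, -2.72 and -3.21 in WT and -2.96, -2.91, -2.48 and -3.32 in ATF3 KO, a difference of 0.07 (SE 0.20). ENSMUST00000103404 read -1.37, -1.81, -2.51 and -1.72 in WT and -1.69, -1.62, -1.11 and -1.34 in ATF3 KO, a difference of 0.41 (SE 0.25). The groups overlapped in all 3, and the differences of the first pair were smaller than their errors. Smallest and largest differences thus sat next to each other in number, with ENSMUST00000103339 and ENSMUST00000103340 side by side.

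Both ends of the block lay on the side of ATF3 KO. ENSMUST00000103301, the lowest-numbered member, read -1.56, -1.54, -1.77 and -1.25 in WT 1 to 4 and 0.31, -0.10, -0.20 and -0.49 in ATF3 KO 1 to 4. The groups did not overlap and the difference was 1.41 (SE 0.20). Just outside the rule on that side, ENSMUST00000103291 differed by 0.20, ENSMUST00000103299 by 0.60 and ENSMUST00000103300 by -0.03, the last on no array above background. Just outside on the other side, ENSMUST00000103414 differed by -1.61 and was above background on 1 WT array alone. ENSMUST00000103416 differed by -0.07 with no array above background, and ENSMUST00000103418 by 0.10. The neighbour at 0.60 had all 4 ATF3 KO values above all 4 WT values, and the others that were detected on all 8 arrays overlapped.

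For members dark in one genotype no measured fold could be given. Above background on at least 1 ATF3 KO array but no WT array were 5 probes. ENSMUST00000103339 was described above. The others were set against the lowest signals well above background on each WT array. ENSMUST00000103395 was detected on 3 ATF3 KO arrays and its mean there was 2.60-fold higher. ENSMUST00000103381 was detected on 3 and was 1.49-fold higher. ENSMUST00000103398, on 2 ATF3 KO arrays, was 1.23-fold higher, and ENSMUST00000103379, on 1, 1.21-fold. Their ATF3 KO means include arrays not above background, so these folds are not strict bounds. That of ENSMUST00000103379 rests on ATF3 KO 2, at -0.74. The reverse pattern was seen in 2 probes, those of ENSMUST00000103394 and ENSMUST00000103403, for which no fold is given.

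For 5 transcripts 2 probes were present, and they gave a check within the array. The pairs differed between genotypes by 1.72 and 1.80 for ENSMUST00000103318, 1.44 and 1.21 for ENSMUST00000103324, and 0.55 and 0.46 for ENSMUST00000103328. They differed by 1.42 and 1.39 for ENSMUST00000103397 and by 0.84 and 0.83 for ENSMUST00000103401. After each genotype's mean was removed, the values of a pair over the 8 arrays correlated with r of 0.94, 0.91, 0.94 and 0.98 in the first 4. The pair of ENSMUST00000103401 had r of -0.13. In 4 of 5 transcripts, therefore, separate spots saw the same arrays as high and low, as a description over 8 arrays that share labelling and slide. Kappa V segments can be near-identical, so a probe may also read relatives of its named transcript, and how far that happened was not tested.

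The arrays of one genotype differed among themselves, which the rule for the block did not use. The median over the 63 detected probes was -1.32, -0.97, -1.80 and -1.20 in WT 1 to 4 and 0.30, 0.19, 0.13 and -0.11 in ATF3 KO 1 to 4. The group means of these medians were -1.32 ± 0.35 and 0.13 ± 0.17 (SD, n = 4 each). The median deviation of a detected probe from its own group's mean was -0.01, 0.26, -0.37 and -0.07 in the WT arrays and 0.11, 0.02, 0.03 and -0.37 in the ATF3 KO arrays. The third WT array was the lowest of its group for 31 of the 58 transcripts, and the fourth ATF3 KO array for 27. The second WT array was the highest of its group for 26.

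**Figure D3:**
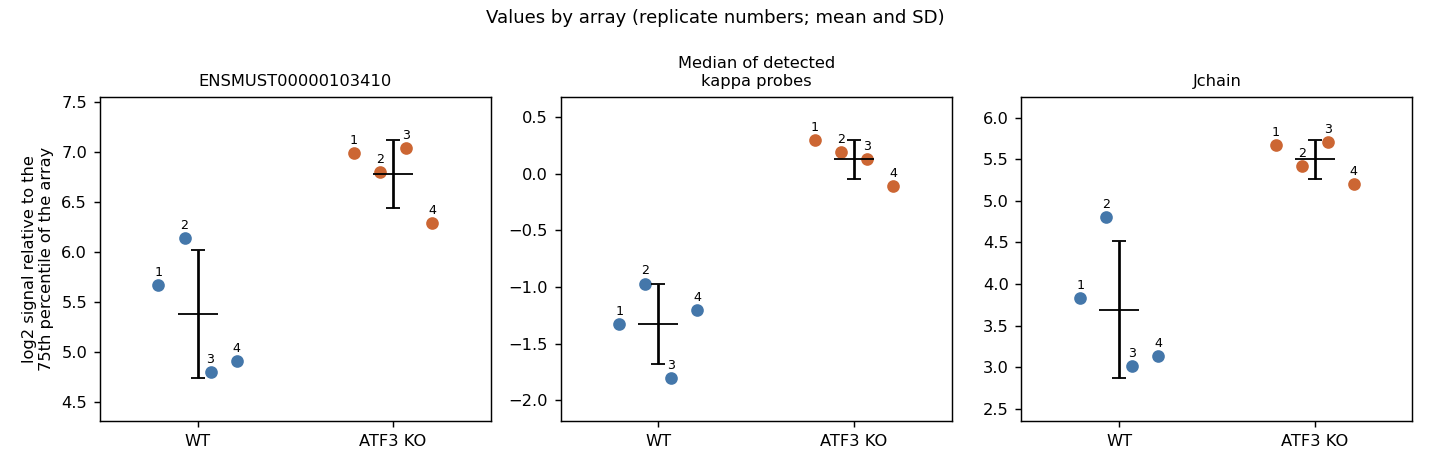
Points are single arrays, numbered by replicate, with the mean and SD of each genotype (n = 4), on the log2 scale relative to the array's 75th percentile. The median of the detected kappa probes lies between -1.80 and -0.97 in WT and between -0.11 and 0.30 in ATF3 KO, and ENSMUST00000103410 shows the narrowest gap between WT 2 and ATF3 KO 4.

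Which ATF3 KO array was brightest changed along the block. Of the 58 detected transcripts ATF3 KO 1 was the highest of its group in 25, ATF3 KO 3 in 17, ATF3 KO 2 in 11 and ATF3 KO 4 in 5. Some of these lay in runs: from ENSMUST00000103301 to ENSMUST00000103320 all 12 detected transcripts were highest in ATF3 KO 1, with a median deviation from the group mean of 0.65. From ENSMUST00000103340 to ENSMUST00000103363 a run of 9 was highest in ATF3 KO 3, by a median deviation of 0.92, and lay below the group mean in ATF3 KO 1, with a median of -0.61. From ENSMUST00000103364 to ENSMUST00000103374 the next 7 were highest in ATF3 KO 1 again, at a median of 0.86. A run of 4 from ENSMUST00000103396 to ENSMUST00000103401 was highest in ATF3 KO 4, at 0.63, although that array was the lowest of its group in 27 of the 58. The runs were picked out after their values were seen, and have no test.

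Cut into stretches of 20 numbers, the block had 1 leading ATF3 KO array in some stretches and none in others. ATF3 KO 1 to 4 were highest in 5, 5, 5 and 1 of the 16 detected transcripts from ENSMUST00000103321 to ENSMUST00000103340. From ENSMUST00000103361 to ENSMUST00000103380 these counts were 7, 3, 1 and 0 of 11. They were 1, 3, 2 and 3 of 9 from ENSMUST00000103381 to ENSMUST00000103400, and 0, 0, 2 and 1 of 3 from ENSMUST00000103401 on. In the stretch from ENSMUST00000103341 to ENSMUST00000103360 all 7 detected transcripts were highest in ATF3 KO 3 among ATF3 KO arrays and in WT 2 among WT arrays, and their median difference was 2.06, against 0.84 to 1.54 in the other 5 stretches. In the first stretch the 12 of 12 for ATF3 KO 1 and in this one the 7 of 7 for ATF3 KO 3 also held under the normexp, quantile, median and detected-probe scalings and in the authors' deposited log2 table. In the WT arrays the first stretch had no such leader: WT 1 was highest in 5 of the 12, WT 2 in 4, WT 4 in 2 and WT 3 in 1.

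**Figure D4:**
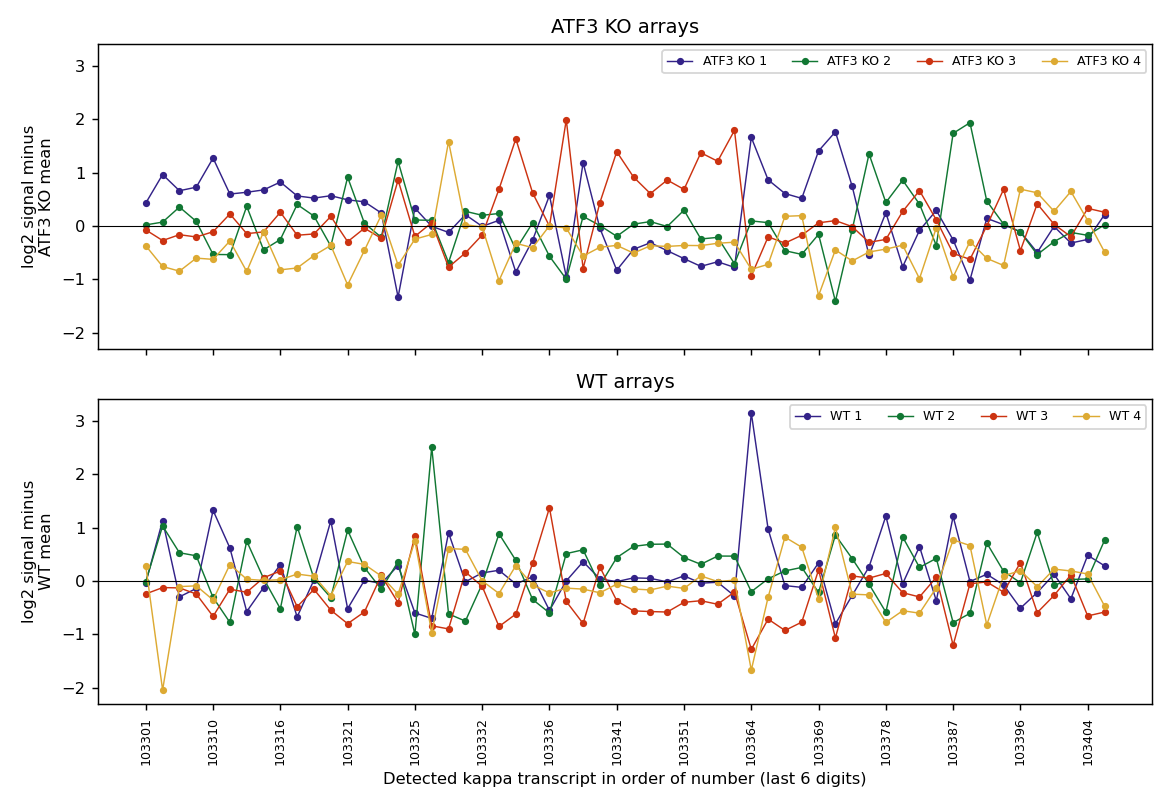
The upper panel shows the 4 ATF3 KO and the lower panel the 4 WT arrays. Each line is 1 array. It gives the log2 signal of the 58 detected kappa transcripts minus the mean of that genotype, in order of transcript number. In the upper panel ATF3 KO 1 leads over the first 12 transcripts, ATF3 KO 3 over the run of 9 in the middle, and ATF3 KO 1 again over the following 7.

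Neighbours in number tended to move together within the ATF3 KO group. Over the 4 ATF3 KO arrays, pairs of transcripts 1 to 5 numbers apart had a median r of 0.53 (155 pairs), pairs 6 to 20 apart 0.16 (430 pairs) and pairs 21 or more apart 0.06 (1068 pairs). Over the 4 WT arrays the medians were 0.08, 0.19 and 0.18 at the same distances, with no excess among neighbours. Over all 8 arrays with group means removed they were 0.27, 0.06 and 0.07. Each r rests on 4 or 8 arrays and the pairs share those arrays and probes, so they are a description. Probes of neighbours may also read the same RNA where segments are near-identical, which was not tested. Whether transcript number follows position in the locus was not checked here.

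Single transcripts stood out in single arrays too, named here after their values were seen. ENSMUST00000103328 read -0.16, 3.06, -0.30 and -0.43 in WT 1 to 4 on one of its probes, and 1.08, 1.20, 1.15 and 0.93 in ATF3 KO 1 to 4. Its other probe was also highest in WT 2, at 0.08 against -2.82, -3.88 and -2.98 in the other WT arrays. WT 2 was thus above every ATF3 KO array on both probes. ENSMUST00000103364 read 0.95, -2.40, -3.49 and -3.88 in WT and 0.73, -0.84, -1.87 and -1.75 in ATF3 KO, with the first array of each genotype high. ENSMUST00000103377 read -2.09, -2.42, -2.31 and -2.62 in WT and -1.56, 0.34, -1.31 and -1.49 in ATF3 KO, where the second ATF3 KO array stood apart.

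The numbers that follow the block in Ensembl, ENSMUST00000103411 to ENSMUST00000103560, were set beside it. Of 96 probes there 62 were tested, 56 of these were higher in ATF3 KO, and the median difference was 0.53 against 1.43 for the 58 kappa transcripts. Differences ran from -0.39 to 3.02 there and from -0.25 to 2.62 in the 58. At least 2-fold higher were 20 there and 43 of the 58, and at least 4-fold higher 9 and 10. The groups separated upward in 16 of the 62, or 25.8%, against 34 of 58 in the kappa block and 4.13% of all genes tested. Of the 62, 7 were called higher. The other 1261 tested genes known by Ensembl transcripts had a median of -0.03 with 10 called higher. Of those 1261, 6.19% separated upward. The difference between these sets was not tested.

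Genes of antibody secretion and plasma cells were mixed. Of 24 listed, 22 were tested, 1 was called higher and 0 lower by limma over all genes (6 higher and 2 lower at an unadjusted p under 0.05), and their median difference was -0.05 against -0.11 for all genes. Derl3, an endoplasmic reticulum factor for degrading misfolded secretory proteins, rose by 1.12 (SE 0.19, limma with Benjamini-Hochberg adjusted p = 0.0494). It read -2.65, -2.16, -3.14 and -2.57 in WT 1 to 4 and -1.33, -1.57, -1.46 and -1.70 in ATF3 KO 1 to 4, with no overlap. Its adjusted p ran from 0.0334 to 0.163 over 20 settings and its difference from 0.40 to 1.27, and it was called in 8 of them. Derl3 was above background on 2 of the 4 WT arrays and on all 4 ATF3 KO arrays. Jchain, the chain that joins secreted IgM and IgA units, differed by 1.81 (SE 0.35, limma adjusted p = 0.067, from 0.00939 to 0.196 over 21 settings, called in 5). Mzb1, a chaperone of antibody-secreting cells, differed by 0.74 (SE 0.15, limma adjusted p = 0.0822), and Irf4, a transcription factor of plasma cells and of light chain genes, by 0.57 (SE 0.15, limma adjusted p = 0.109). Xbp1 and Prdm1, regulators of secretory cells, differed by -0.12 and -0.02.

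Jchain ordered the arrays as the brightest kappa probe did. It read 3.83, 4.80, 3.01 and 3.13 in WT 1 to 4 and 5.67, 5.42, 5.71 and 5.21 in ATF3 KO 1 to 4. In both genotypes this is the order of ENSMUST00000103410, with WT 2 and ATF3 KO 3 at the top and WT 3 and ATF3 KO 4 at the bottom. After group means were removed the pair had r of 0.957 over the 8 arrays, and 20 of 12550 genes had a higher r with that probe. This pair was set side by side after its values were seen. Over the 58 kappa transcripts the median r with Jchain was 0.34, with 42 above 0 and 18 at 0.5 or more. Mzb1 had r of 0.46 and Irf4 of 0.33 with the brightest kappa probe.

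No gene of the mature B cell and precursor lists passed the test. Of 25 genes of the B cell receptor and mature B cells 24 were tested, 0 were called by limma (9 higher and 1 lower at an unadjusted p under 0.05), the median difference was 0.30, and 21 exceeded the median of all genes, with 17 above 0. The IgM receptor Fcmr differed by 0.49, the B cell receptor subunit Cd79b by 0.34 and Fcrla by 0.40. Among 20 genes of B cell precursors 19 were tested, 0 were called by limma (6 higher and 1 lower at an unadjusted p under 0.05), the median was 0.44, 17 exceeded the median of all genes, with 14 above 0. The interleukin 7 receptor chain Il7r differed by 0.91, the pre-B cell receptor component Vpreb3 by 0.58, the recombinase subunit Rag2 by 0.71 and the lineage factor Ebf1 by 0.59. Among the 5 below 0, named here after their values were seen, the progenitor receptor Kit differed by -0.30, Cd93 by -0.13 and Bcl6 by -0.08. The medians of both lists lay above that of all genes, by 0.55 for precursors and 0.41 for mature B cells. With normexp, quantile normalization and the deposited table these gaps were 0.22 to 0.52. Median, detected-probe and per-spot percentile scaling shift each array by a constant, which leaves the gaps as they were by construction. Keeping outlier spots left them at 0.55 and 0.41.

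Factors that act on the kappa locus itself did not share a direction. Of 28, 27 were tested, 0 were called by limma (4 higher and 2 lower at an unadjusted p under 0.05), and the median was -0.06. Irf4, Rag2 and Ebf1 are given above, and E2f3, a cell cycle factor, differed by -0.36 (SE 0.11, limma adjusted p = 0.136). The summed level of B cell markers, in units of each array's 75th percentile, was 30.7 to 35.7 in WT and 37.8 to 49.3 in ATF3 KO, with 5 of 5 tested and higher in ATF3 KO. For plasma cell markers it was 9.93 to 30.1 and 40.4 to 55.4, with 4 of 5 tested and Tnfrsf17 above background on no array. Jchain alone gave 81.2% to 94.9% of the sum of the 4 tested markers, depending on the array. For precursor markers it was 4.92 to 11.3 and 7.77 to 13.3, with 6 of 6 tested. The sums of B cell markers and of plasma cell markers did not overlap between genotypes, and those of precursor markers did. Summed over the whole lists the groups overlapped in each. Mature B cell genes gave 486 to 545 in WT and 479 to 556 in ATF3 KO. Antibody secretion genes gave 259 to 305 and 265 to 321, and precursor genes 142 to 156 and 147 to 170. These sums are on a linear scale, so the brightest genes weigh most in them. The brightest tested genes of the 3 lists, in that order, were Cd24a, Xbp1 and Bcl6, which differed by -0.14, -0.12 and -0.08. The overlap of the sums therefore does not show that the dimmer genes of a list were unchanged. The part of B lineage cells in the kappa difference was not tested.

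**Figure D5:**
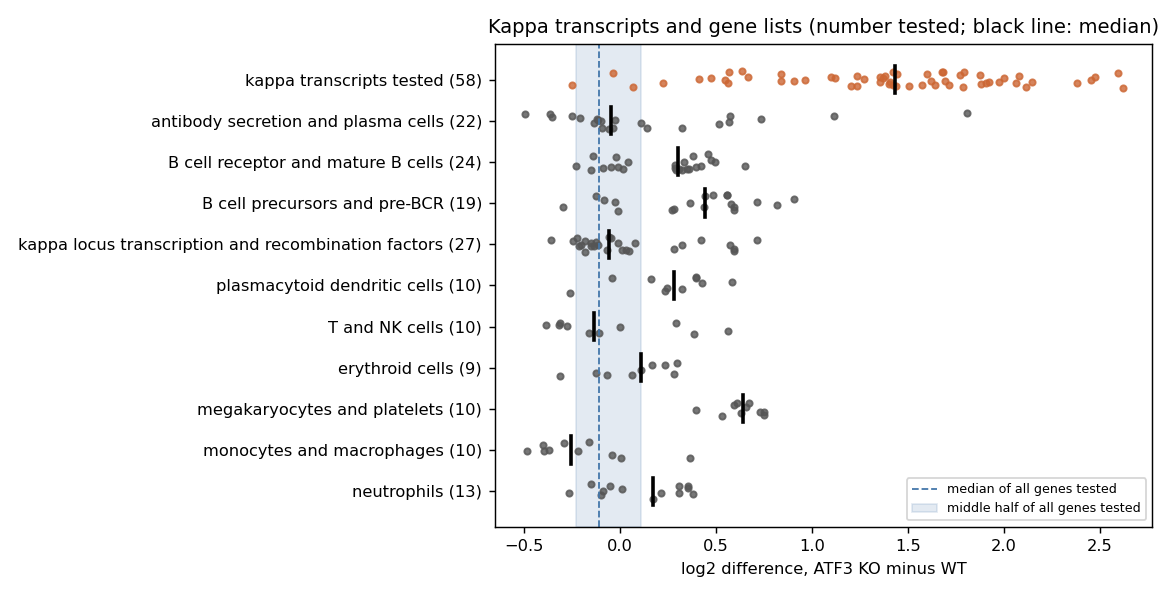
Each point is the log2 difference, ATF3 KO minus WT, of 1 gene or kappa transcript, grouped by list, with the number tested in brackets and the median as a black line; the shaded band spans the middle 50% of all genes tested. The 58 kappa transcripts have a median of 1.43, the precursor list 0.44, the mature B cell list 0.30 and the antibody secretion list -0.05.

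In the lists for other cells that a bone marrow gate could hold, limma called 0 genes each. Plasmacytoid dendritic cell genes had a median of 0.28 (10 tested, 3 higher at an unadjusted p under 0.05), with Siglech at 0.40 and Ly6d at 0.40. Megakaryocyte and platelet genes had a median of 0.64, the highest of the lists, with 5 of 10 higher at an unadjusted p under 0.05 and the platelet integrin Itga2b at 0.63. T and NK cell genes had a median of -0.13 (10 tested, 2 lower at an unadjusted p under 0.05), with the T cell receptor subunit Cd3d at -0.38. Monocyte and macrophage genes had -0.26 (10 tested, 4 lower), with the complement gene C1qb at -0.40. Erythroid genes had 0.11 (9 tested, 0 at an unadjusted p under 0.05). Neutrophil genes had 0.17 (13 tested, 5 higher), with the granule gene Camp at 0.35, and the summed level of their 7 measured markers was 7054 to 8981 in WT and 8743 to 10852 in ATF3 KO. In the authors' deposited table the neutrophil median was -0.03, as was that of all genes. The medians of the neutrophil, T and NK cell, antibody secretion and kappa locus factor lists changed sign between scalings, and those of the other lists did not. The part of these shifts in the kappa difference was not tested.

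The genes most like the block within genotypes were of no list above. Of 12550 named genes the 8 whose deviations from the group means best followed the median kappa deviation over the 8 arrays were Mmgt1, D2hgdh, Leprotl1, Tex15, Lhfpl2, Mmp23, Sla and Macroh2a1, with r from 0.993 down to 0.975. Their own differences between genotypes were small, from -0.36 for Mmp23 to -0.06 for D2hgdh. They are the top of a long ranking over 8 arrays, so a high r is reached by selection.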

How the data were processed

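Each sample was one 1-colour Agilent array. Per the file headers and the submitters' processing notes, the authors extracted spot intensity values with Agilent Feature Extraction (header version 10.9.1.1, notes 10.10). The processed signal in the deposited files is an intensity on a linear scale after the scanner software's background step. The authors also deposited a table of log2 values, whose normalization is not given in the sources used here. Its column medians lie between 6.15 and 6.16 and it served as an alternative.

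Outlier spots were left out, spots of a probe averaged, and log2 of the processed signal taken minus the array's 75th percentile over probes. Probes above background on at least 4 of 8 arrays were kept (27948), with the highest-mean probe per gene, which gave 21240 genes. Genotype was fitted with limma 3.58.1 in R 4.3.3 (lmFit, eBayes), with Benjamini-Hochberg adjustment over all genes and a threshold of 0.05. The fit was tested on simulated data.

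The members and gene lists were chosen with earlier results of these data known. Members named are the 10 with the highest means, the 5 largest and 5 smallest differences among detected members, both ends of the block and up to 3 neighbours a side. Per list, up to 4 genes with the smallest p are named, and the 8 genes most like the block. Some genes of the rule are not reported here. Xbp1, Prdm1 and the transcripts so marked in the text were named after values were seen. Group differences are ATF3 KO minus WT on the log2 scale.

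Alternatives were the background correction (normexp, offset 50, on median signals), quantile, median and detected-probe scaling, the deposited log2 table, the filter, every probe, trended robust variances, the replicate number as a block, and each array left out. The 75th percentile over spots and keeping outlier spots were added after seeing the data. Whether replicate numbers pair the samples is not settled: same-numbered arrays had deviations correlated at 0.19, -0.13, -0.27 and 0.18. The highest r of each WT array with an ATF3 KO array of another number was 0.03, 0.26, 0.30 and -0.02. No arrays were near-duplicates: within a group the smallest root mean square difference was 0.282 (log2).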

Additional observations from a re-analysis of the deposited data

Results flagged for a closer look

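In a group of 4 arrays, a value was picked out where its gap to the nearest other filled most of the group's range. This looked at 125 groups of kappa probes and 74 of the listed genes, and 8 values were found. Chance picks about 1 in 20 groups. Among kappa probes, ENSMUST00000103320 was high in WT 1, at 1.85 against 0.45 for the nearest WT array. ENSMUST00000103328 was high in WT 2, at 3.06 against -0.16, and its other probe showed the same array high. ENSMUST00000103377 was high in ATF3 KO 2, at 0.34 against -1.31. Among listed genes Irf4 was low in ATF3 KO 2, at -0.35 against -0.15. Fcmr was high in ATF3 KO 4, at 3.11 against 2.68, and E2f3 was high in ATF3 KO 3, at 1.45 against 1.18. Rag2 was low in ATF3 KO 3, at -2.53 against -2.21, and Ly6d was low in WT 2, at 3.0 against 3.13. All values are log2 relative to the array's 75th percentile.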

How the results depend on the processing

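The kappa median stayed positive in every alternative run, with 55 to 57 of 58 tested transcripts higher in ATF3 KO under each scaling, normexp and the deposited log2 table. In the main setting 7322 of all 21240 genes were higher. The block was chosen on this contrast in these arrays, so the kept sign describes the processing and is no support for the difference. Over all 85 probes the median of 1.27 fell to 0.63 in the deposited table and 0.62 with normexp, and over tested transcripts 1.43 became 0.87 and 0.85. Scaling moved the median of all genes from -0.18 (median scaling) to 0.04 (detected probes). Both shift each array by a constant, which leaves the gap to the kappa median as it was by construction. The 95 calls over all genes became 149 with the deposited table, 58 with every probe tested, 217 with median scaling, 10 without a filter, 251 with normexp, 44 with detected-probe scaling, 31 with quantile normalization and 192 with trended robust variances. The share of calls that were higher was 82.1%, against 62.2% with normexp, 71.0% with quantile normalization, 40.0% without a filter and 52.9% without ATF3 KO 2. Kappa calls (16), which are no test of a block chosen on these values, became 27 with median scaling, 0 without a filter, 26 with normexp and 5 with quantile normalization. List calls (1) became 3 with the deposited table or trended robust variances, 2 with median scaling or normexp, and 0 with every probe, no filter, quantile normalization or the replicate block. The widest range of median kappa deviations among arrays of a genotype, 0.63, became 0.89 with median scaling and 0.33 with normexp. Leaving out 1 array gave 5 to 226 calls over all genes, 0 to 18 kappa calls, 0 to 2 list calls, 38 to 46 separated kappa probes, kappa medians of 1.20 to 1.36 (all) and 1.37 to 1.56 (tested), a spread of 0.49 to 0.77, and 6.92 to 10.3 more kappa probes above background. The replicate block gave 72 calls in all and 14 kappa calls, with the kappa median at 1.43, although whether the numbers pair the samples is not settled. Dim probes limit the precision of low members, and 4 arrays a group limit all.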
